A study of Mus musculus with 9 samples.

Results

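The cytosolic ribosomal protein genes of mouse gastrocnemius, a calf muscle, were examined in sham-operated, castrated and testosterone-replaced animals. A gene was included when its symbol starts with Rpl or Rps followed by a digit, or is Rplp0, Rplp1, Rplp2 or Rpsa, leaving out the Rps6k kinases and pseudogenes. Each gene was represented by the brightest of the probe sets (groups of short probes that report 1 transcript on the array) listed to it alone. This gave 50 of the 18193 genes tested, 26 of the large subunit and 24 of the small subunit. The array listed 81 symbols of the rule in any form, and 31 of them, among them Rpl3, Rpl5, Rpl10, Rplp1 and Rps12, had no probe set of their own. Rpl7l1 and Rps19bp1 satisfy the symbol rule although their products are not structural subunits of the cytosolic ribosome.

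All mice were young adults of the outbred CD-1 stock. The sham group had a mock operation and a placebo pellet. The castration group was castrated and given a placebo pellet, and the testosterone group was castrated and given a 2.5 mg testosterone pellet with 60-day release. Muscle was taken on day 14. Each group of 12 mice gave 3 arrays, and every array carried a pool of 3 mice, 27 in all, so an SD here is a spread between pools.

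A ribosome joins a large subunit, which forms the peptide bond, to a small subunit, which reads the messenger RNA, and each is built from ribosomal RNA and a set of proteins, most of them needed in equal numbers. Making ribosomes is a major cost of growth, and in muscle ribosome content is tied to the capacity for protein synthesis during hypertrophy and atrophy. The mRNAs of most ribosomal proteins begin with a C followed by an unbroken run of C and T bases (a TOP motif). Through this motif mTOR signalling and Larp1 set how much of the mRNA is translated. Arrays measure the amount of an mRNA and not its translation.

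The start of the mRNA is shown for the genes whose annotated start carries this motif, because it is the sequence feature for which the family is best known. Each line gives 14 bases before the annotated start and 16 from it, from RefSeq on GRCm38.p6, 5′ to 3′ on the coding strand, with the run of C and T at the start in capitals.
Rpl35: ggccccgccctttcCTCTTTCTCTCgaacc
Rpl38: gcggaagcctcgttCTTTCCCCgttctctt
Rplp2: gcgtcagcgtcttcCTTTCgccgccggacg
Rpl14: ggcgggccctctctCTTCTCgctgagcgcc
Rps6: agcggaagtcgggcCTCTTTTTCgtgacgc
Rps10: cgccgcgcacgcccCTTCCTTTCCagcctc
Rps18: acgtcacttccgctCTCTCTTCCacaggag
Rps27: tttccgctttcgctCCTTTCCggcggtgac
Rpl3l: agtgttctagctctgtcatttgacctctgg
The windows lie at chr2:39005116-39005145 (minus strand) for Rpl35, chr11:114668566-114668595 (plus) for Rpl38, chr7:141447637-141447666 (plus) for Rplp2, chr9:120571503-120571532 (plus) for Rpl14, chr4:86857352-86857381 (minus) for Rps6, chr17:27635229-27635258 (minus) for Rps10, chr17:33955650-33955679 (minus) for Rps18 and chr3:90213633-90213662 (minus) for Rps27. Rpl3l, the striated muscle paralog of Rpl3, is shown for contrast at chr17:24727812-24727841 (plus) and has no such run at this start. A C at the start followed by C or T, at least 5 bases in all, was found in 8 of the 44 members with a promoter entry (18.2%), in 4 of 24 of the large subunit and 4 of 20 of the small. The share was 2.93% over the 14452 tested genes with an entry, and 0 of 67 for mitochondrial ribosomal proteins. An annotated start that is off by a few bases hides the motif, so these are counts of matches at the annotated base. The ETS-type motif CCGGAAG, on either strand between 250 bases before and 50 after the start, was present for 21 of 44 members (47.7%), 25 of 67 mitochondrial ribosomal protein genes (37.3%) and 15.0% of tested genes with an entry.

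Before the comparisons, 2 arrays stood apart. The mean correlation with the remaining arrays was 0.972 for sham 2 and 0.981 for testosterone 2, against 0.989 to 0.991 for the other 7. Muscle fibre markers were high throughout, with Acta1, skeletal actin, between 14.17 and 14.24 and Ckm, muscle creatine kinase, between 13.96 and 14.03, and the mean deviation of all 16 from their own means lay between −0.04 and 0.08. The 10 measured adipocyte markers averaged 1.27 above their means on sham 2 and 1.09 on testosterone 2, and −0.77 to −0.61 on the castration arrays. They averaged −0.35 on sham 1, 0.11 on sham 3, 0.45 on testosterone 1 and −0.49 on testosterone 3. The 20 measured macrophage and lymphocyte markers averaged 0.96 on testosterone 2, 0.40 on sham 2 and −0.27 to −0.09 elsewhere. The 13 fibroblast and matrix markers averaged −0.60 on sham 2 and −0.45 on testosterone 2, with 0.24 and 0.26 on the other sham arrays, 0.17 to 0.48 after castration and −0.31 and −0.099 on the other testosterone arrays. The 8 tendon markers averaged −0.69 on sham 2, −0.24 on testosterone 2 and −0.19 to 0.40 elsewhere. The part of these cells in the ribosomal protein values was not tested.

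Levels are log2 expression values, so a difference of 1 is a doubling. Of the 50 genes, 39 had a mean above 6 and are called bright here: 21 of the large and 18 of the small subunit, running from 7.27 for Rpl37 to 12.66 for Rpl37a, with 37 of them above 9.9. The array medians over all probe sets were 3.15 to 3.26, so the bright genes lay far above the typical probe set. The other 11 were dim, 9 of them below 5: Rpl12, Rpl14, Rpl39, Rpl39l, Rps4l, Rps6, Rps16, Rps25 and Rps27. For 6 of these another probe set of the gene was bright. Rps6, the substrate of the S6 kinases, averaged 3.80 on its own probe set and 12.12 on a probe set shared with a pseudogene or unnamed locus. The same contrast was 2.79 and 12.69 for Rps16, 4.64 and 11.77 for Rps25, 3.27 and 11.04 for Rpl12, 3.18 and 11.27 for Rpl14, and 3.84 and 12.16 for Rpl39.

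Pools of one group varied little in these genes. The median SD within groups was 0.10 for members and 0.16 for all genes tested, and 0.084 and 0.11 without sham 2 and testosterone 2. Rps15, of the small subunit, was the steadiest bright gene, with sham values of 11.74, 11.79 and 11.74, castration values of 11.76, 11.77 and 11.77, and testosterone values of 11.67, 11.76 and 11.77. Its 9 arrays spanned 0.13, and no group stood apart. Rps7, Rps14, Rpl19 and Rpl11 had within-group SDs of 0.060, 0.061, 0.066 and 0.071. The widest bright genes were Rpl37 (0.31), Rpl27a (0.29), Rpsa (0.26) and Rps27l (0.21).

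**Figure D1:**
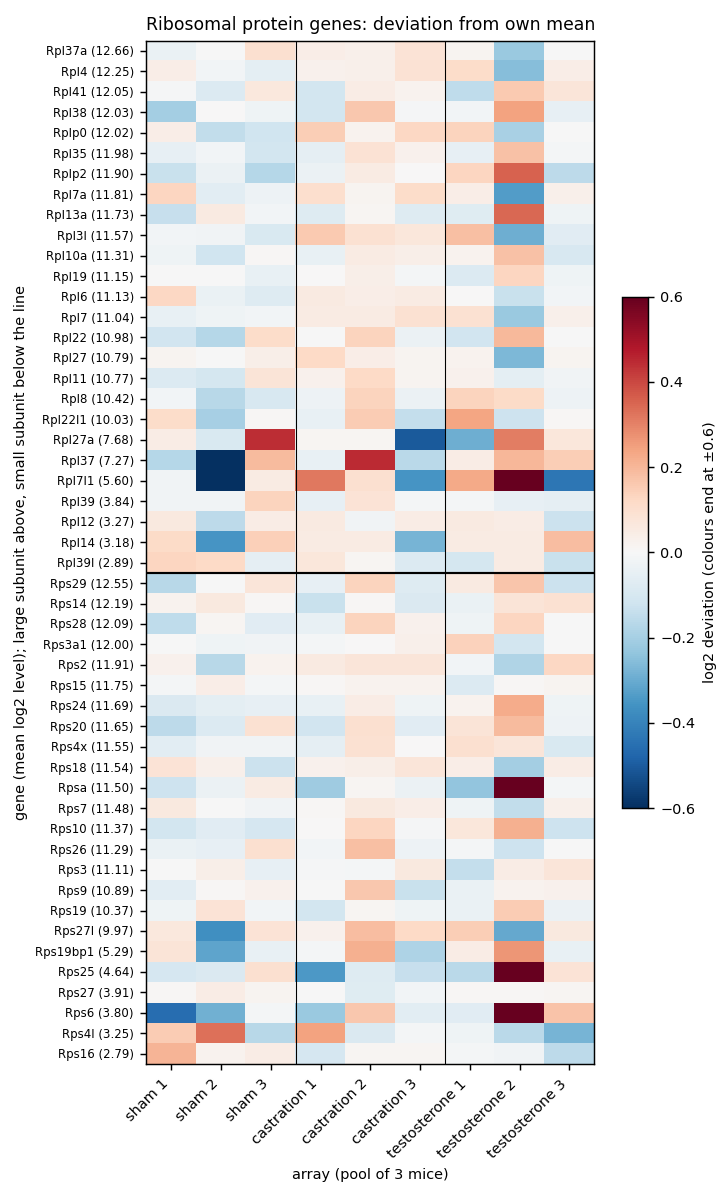
Log2 deviation of each of the 50 ribosomal protein genes (rows, with the mean log2 level, large subunit above the line) from its own mean on each of the 9 arrays (columns). Most cells are pale, and the rows of Rpl7l1, Rpl37, Rps6, Rpl27a and Rps25 vary most. The column of testosterone 2 holds the largest number of strongly coloured bright genes, above and below their means. Rpl37 on sham 2 lies further below its mean than any bright gene on testosterone 2 does.

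The effect of castration was read from castration against sham. No ribosomal protein gene passed the test: 0 of 50 had an adjusted p under 0.05 (limma, Benjamini-Hochberg over all genes; 0% of all genes did) and the smallest was 0.838. At an unadjusted p under 0.05 the count was 0 of 50, against 4.72% of all genes. The mean difference was above 0 for 37 of 50 members and for 52.9% of all genes. For the large subunit 20 of 26 were higher with a median log2 difference of 0.059, and for the small subunit 17 of 24 with a median of 0.023, beside a median of 0.010 over all genes. Without sham 2 the large subunit median was 0.029 and 36 of 50 members were higher. Leaving out 1 array moved the small subunit median between 0.0081, without castration 2, and 0.048, and renewed quantile normalisation gave 0.0050. As a mean deviation over its genes, the large subunit lay at −0.036 ± 0.071 in sham and 0.021 ± 0.056 after castration, and the small subunit at −0.026 ± 0.018 and −0.0008 ± 0.057 (SD, n = 3 pools each), and the pools of the groups overlapped. The 95% interval of the difference lay within ±0.5 for 44 of 50 genes and within ±1 for 49, Rpl7l1 being the exception. Over all 18193 genes the counts were 11874 and 16864. In RNA of whole muscle, fewer cells of a type and less mRNA per cell cannot be told apart, and since equal amounts of RNA were labelled and the arrays were normalised together, a change in total ribosome content per muscle would not be seen.

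For 7 of 50 members the castration and sham arrays did not overlap, beside 8.89% of all genes. Rpl3l, Rpl7, Rps2, Rps10 and Rps24 were higher after castration and the dim Rps16 and Rps27 lower. On the bright, shared probe set of Rps16 the difference was 0.0006 ± 0.12. Rps2 differed by 0.11 ± 0.097, and by 0.04 ± 0.075 without sham 2 and testosterone 2. Rpl3l read 11.55, 11.55 and 11.48 in sham and 11.73, 11.66 and 11.64 after castration, a difference of 0.15 ± 0.12 (SE; 95% interval −0.11 to 0.41; adjusted p = 0.838, limma). All castration pools lay above all sham pools. The SD was 0.043 in sham, 0.046 after castration and 0.24 with testosterone, and the fit uses their common estimate. Rps10, of the small subunit, read 11.26, 11.30 and 11.27 in sham and 11.37, 11.50 and 11.36 after castration, a difference of 0.13 ± 0.097. It was likewise separated by array and not past the test, and 5 of its 6 probe sets shared the sign. The smallest p belonged to Rplp0, the base of the ribosomal stalk that recruits elongation factors and a common reference gene. Rplp0 read 12.06, 11.87 and 11.90 in sham and 12.17, 12.04 and 12.14 after castration, a difference of 0.17 ± 0.10, and sham 1 overlapped the castration pools. Its stalk partner Rplp2 differed by 0.12 ± 0.12. Among lower genes the smallest p-values belonged to Rpl27a, at −0.29 ± 0.21, and Rps14, at −0.10 ± 0.075. Rpl27a went the other way on a brighter probe set shared with other loci, which read 11.29, 11.30 and 11.35 in sham and 11.38, 11.48 and 11.39 after castration, a difference of 0.10 ± 0.076 without overlap. Rpl37 had the largest upward difference, 0.29 ± 0.22, and sham 2 was its lowest array, at 6.62. Without sham 2 and testosterone 2 it was 0.07 ± 0.19.

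Testosterone replacement was read from testosterone against castration. Again 0 of 50 genes passed the adjusted p of limma (0% of all genes) and 0 of 50 an unadjusted p under 0.05 (3.48% of all genes). Testosterone pools were higher for 26 of 50 members and for 48.3% of all genes, 13 of 26 in the large subunit with a median of −0.0033 and 13 of 24 in the small with a median of 0.0064, beside −0.0053 over all genes. Without testosterone 2 the count was 15 of 50, with a median of −0.032. The interval lay within ±0.5 for 43 genes and within ±1 for all 50, beside 12558 and 17291 of all 18193 genes. Groups did not overlap for 3 of 50 members, beside 9.01% of all genes: Rpl6 and Rpl37a, with differences of −0.10 and −0.12, and the dim Rps27, which was higher. Rpl6 and Rpl37a were lowest on testosterone 2, and without that array and sham 2 their differences were −0.05 and −0.04.

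Rps25 and Rpl7a were among the genes with the smallest p, and both had their extreme value on testosterone 2. Rps25 read 4.30, 4.57 and 4.51 after castration and 4.48, 5.37 and 4.73 with testosterone on its dim probe set, a difference of 0.40 ± 0.20, and 0.15 ± 0.12 without the 2 arrays that stood apart. On its shared, bright probe set the difference was −0.06 ± 0.11. Rpl7a, of the large subunit, read 11.91, 11.83 and 11.92 after castration and 11.85, 11.47 and 11.84 with testosterone, a difference of −0.16 ± 0.11, and −0.04 ± 0.081 without those arrays. For Rpl7a the other testosterone pools lay within the castration range. Rps14 differed by 0.12 ± 0.075. Rpl27 differed by −0.14 ± 0.094, by −0.04 without those arrays, and by 0.13 and 0.09 on its other bright probe sets.

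Testosterone against sham gave 0 of 50 genes at an adjusted p of 0.05 (0% of all genes) in limma, and 1 of 50 at an unadjusted p under 0.05, beside 4.35% of all genes. The mean was higher for 32 of 50 members and for 52.1% of all genes, 16 of 26 in the large subunit with a median of 0.028 and 16 of 24 in the small with a median of 0.021, beside 0.0075 over all genes. Without sham 2 and testosterone 2 it was higher for 25 of 50, with a median of 0.0031, and the large subunit median was −0.0096. Groups did not overlap for 2 of 50 members, beside 6.47% of all genes: Rps24, with a difference of 0.14, and the dim Rps16, with −0.15. Without those 2 arrays Rps24 differed by 0.07 ± 0.079. Rps16 on its bright, shared probe set read 12.56, 12.73 and 12.68 in sham and 12.69, 13.01 and 12.60 with testosterone, a difference of 0.11 ± 0.12 in the other direction, with overlap. The interval lay within ±0.5 for 41 genes and within ±1 for 48, Rpl7l1 and the dim Rps6 being the exceptions. Over all 18193 genes the counts were 11729 and 16907.

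The gene under the unadjusted threshold was Rps6, on its dim probe set, which read 3.34, 3.51 and 3.78 in sham and 3.73, 4.58 and 3.97 with testosterone, a difference of 0.55 ± 0.22. Its adjusted p in limma was 0.78, from an unadjusted p of 0.0343. The groups overlapped, and testosterone 2 was the highest. Without sham 2 and testosterone 2 the Rps6 difference was 0.29 ± 0.18, with an adjusted p of 0.998 in limma and an unadjusted p of 0.155. On the shared probe set Rps6 read 12.11, 12.11 and 12.05 in sham, 12.11, 12.11 and 12.14 after castration and 12.05, 12.24 and 12.11 with testosterone. There the difference from sham was 0.04, with an interval of −0.13 to 0.22. Among bright genes, Rplp2 read 11.76, 11.86 and 11.73 in sham and 12.03, 12.25 and 11.74 with testosterone, a difference of 0.22 ± 0.12, and 0.14 ± 0.11 without the 2 arrays. Rpl8, of the large subunit, differed by 0.17 ± 0.087, and 0.11 ± 0.10 without them.

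**Figure D2:**
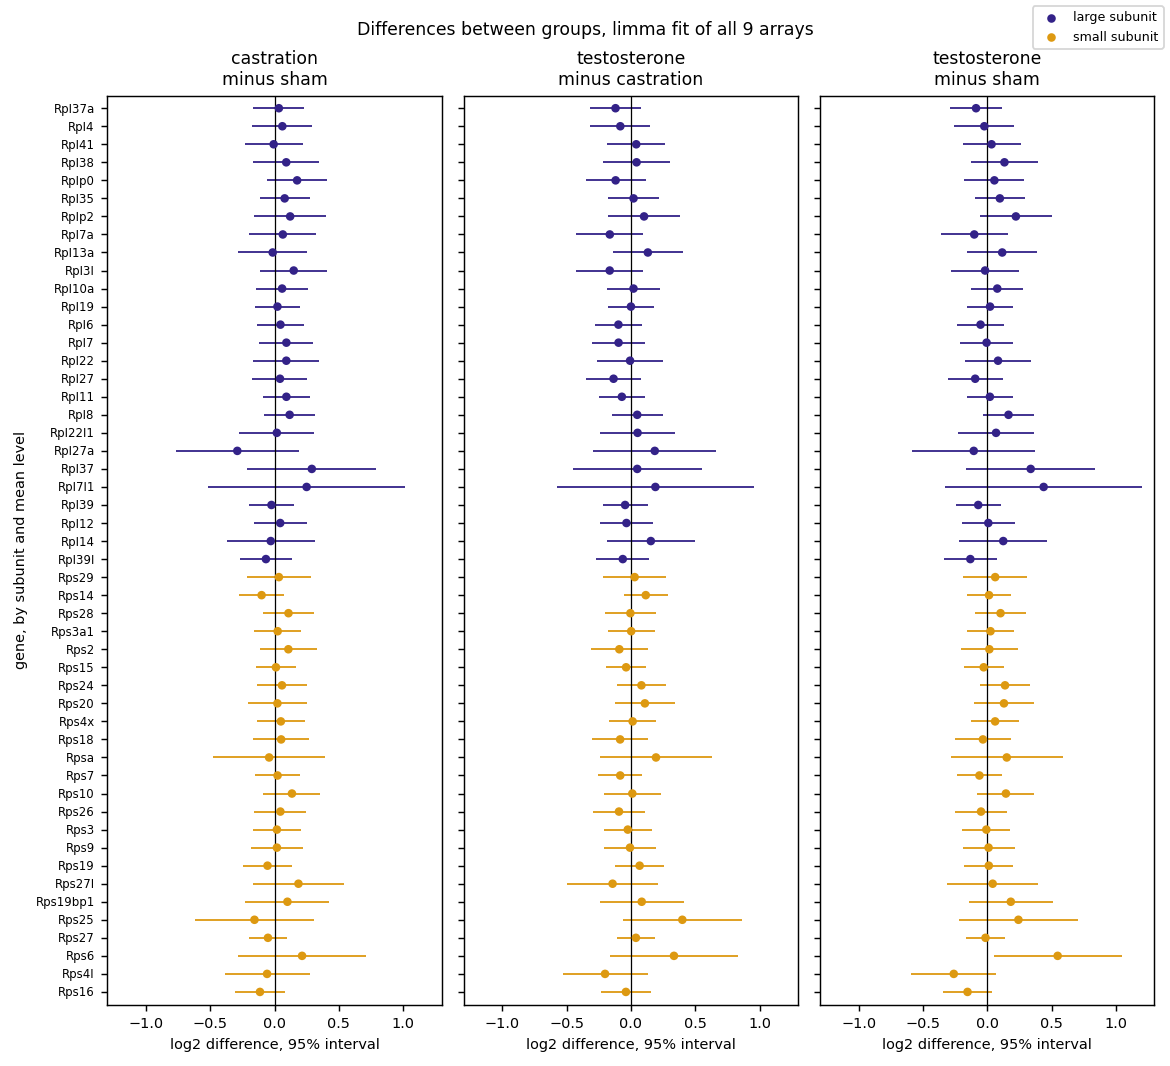
Log2 difference with its 95% interval (limma fit of all 9 arrays) for each of the 50 genes in the 3 comparisons, large subunit in blue and small in orange. All intervals include 0 except that of the dim Rps6 in testosterone minus sham, and the intervals of most bright genes lie within ±0.5.

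The balance of the subunits was compared on each array as the mean deviation of large subunit genes minus that of small subunit genes. It was 0.026, −0.079 and 0.024 in sham, 0.071, 0.013 and −0.017 after castration and 0.034, −0.054 and −0.017 with testosterone. The group means were −0.0097 ± 0.060, 0.022 ± 0.045 and −0.012 ± 0.044 (SD, n = 3 pools each). The groups overlapped in every pairing and the means differed by 0.032 for castration against sham, −0.034 for testosterone against castration and −0.0025 for testosterone against sham, each less than the largest SD. Leaving out 1 array gave −0.0029 (without sham 2) to 0.051, −0.057 to −0.0099 and −0.037 to 0.018, so the sign of the castration difference turned on sham 2. Averaging a gene's probe sets gave 0.067 for castration against sham, and adding shared probe sets gave 0.0098 for testosterone against castration. The dim genes are part of these array values. Over all members testosterone 2 had means of 0.047 (large) and 0.10 (small), and over bright genes alone 0.013 and 0.045. For sham 2 the means were −0.12 and −0.038 over all members, and −0.091 and −0.034 over bright genes. On castration 2, 45 of 50 genes lay above their own mean, and on sham 2 only 13 did, while castration 1 and castration 3 had 22 and 24. The median deviation over all genes was −0.0026 on castration 2 and −0.0225 on sham 2. The share of all genes above their own mean was not counted.

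Paralogs and genes with a role of their own are given next. Rpl22l1, the paralog of the RNA-binding Rpl22, read 10.14, 9.83 and 10.04 in sham, 9.99, 10.18 and 9.89 after castration and 10.27, 9.91 and 10.04 with testosterone. The pools of the groups were interleaved, and Rpl22 itself differed by 0.09, −0.0067 and 0.08 in the order castration against sham, testosterone against castration and testosterone against sham. Rps27l, a p53-responsive paralog of Rps27, read 10.03, 9.60 and 10.05 in sham, 9.99, 10.15 and 10.09 after castration and 10.11, 9.66 and 10.03 with testosterone. Its low values were sham 2 and testosterone 2, and without them its difference after castration was 0.04 ± 0.080 in place of 0.19 ± 0.16. Rps4x, whose paralog Rps4l was dim, differed by 0.05, 0.01 and 0.06 in the same order. Rps4l itself differed by −0.06, −0.20 and −0.26, and by 0.05, −0.20 and −0.14 without sham 2 and testosterone 2.

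Rpl11, which together with Rpl5 binds Mdm2 when ribosome assembly fails, differed by 0.09 ± 0.079 after castration, −0.07 with testosterone against castration and 0.02 against sham. Rpl5 on its shared probe set differed by 0.06, 0.08 and 0.15, each ± 0.081. Rps3, which also has DNA repair activity, differed by 0.02, −0.02 and −0.0067. Rpl13a and Rps18, often used as reference genes, differed by −0.02, 0.13 and 0.12 and by 0.05, −0.08 and −0.03. Rps19, mutated in Diamond-Blackfan anaemia, differed by −0.06, 0.07 and 0.01. Without sham 2 and testosterone 2 the values in the same order were 0.06, −0.05 and 0.0071 for Rpl11, 0.03, 0.0002 and 0.03 for Rpl13a, 0.07, −0.0013 and 0.07 for Rps18, −0.02, 0.0050 and −0.02 for Rps19 and 0.03, −0.09 and −0.06 for Rpl22. Rplp1, partner of Rplp2 in the stalk, differed on its shared probe set by 0.06, 0.0043 and 0.06. None of these passed the test. When probe sets shared only with pseudogenes or unnamed loci were allowed, an alternative chosen after the data had been seen, 74 genes (45 large, 29 small) were measured and 0 passed in any comparison. In the same order 63, 41 and 54 of the 74 were higher, with medians of 0.050, 0.0062 and 0.052. In the main fit 52.9%, 48.3% and 52.1% of all genes were higher.

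Testosterone 2 spread the family in both directions. It was the highest or the lowest of the 9 arrays for 31 of the 50 genes (18 highest, 13 lowest), 62.0% beside 31.0% of all genes. Among the 39 bright genes, 20 lay at least 0.2 from the mean of the other 8 arrays on testosterone 2, and 0 to 4 did on any other array. The SD over the bright genes was 0.22 there, 0.13 on sham 2 and 0.064 to 0.11 on the others. Over all genes it was 0.29 on testosterone 2, 0.42 on sham 2 and 0.14 to 0.19 on the others. How many of all genes lay at least 0.2 away was not counted. Rpsa, the laminin receptor precursor of the small subunit, read 12.10 on testosterone 2 and 11.27 to 11.55 elsewhere. Rplp2 was 0.40 and Rpl13a 0.39 above the mean of the other arrays, while Rpl7a was −0.38, Rps27l −0.35, Rpl3l −0.33, Rpl27 −0.30 and Rpl4 −0.29 from it.

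The control probe sets of the array read the 3′ and 5′ ends of Gapdh and β-actin, and a larger gap is a sign of shorter RNA or labelled product. The 3′ minus 5′ difference on testosterone 2 was 1.10 for Gapdh and 1.56 for β-actin. On the other 8 arrays it was 0.022 to 0.28 and 0.20 to 0.68. Bright members whose probe set name ends in _x_at, the suffix for probes that may bind unrelated transcripts, had a median deviation of 0.19 on testosterone 2 (13 genes), and those ending in _a_at, for probes that read several transcripts of the gene, had −0.065 (17 genes). The part of RNA quality in the spread was not tested.

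**Figure D3:**
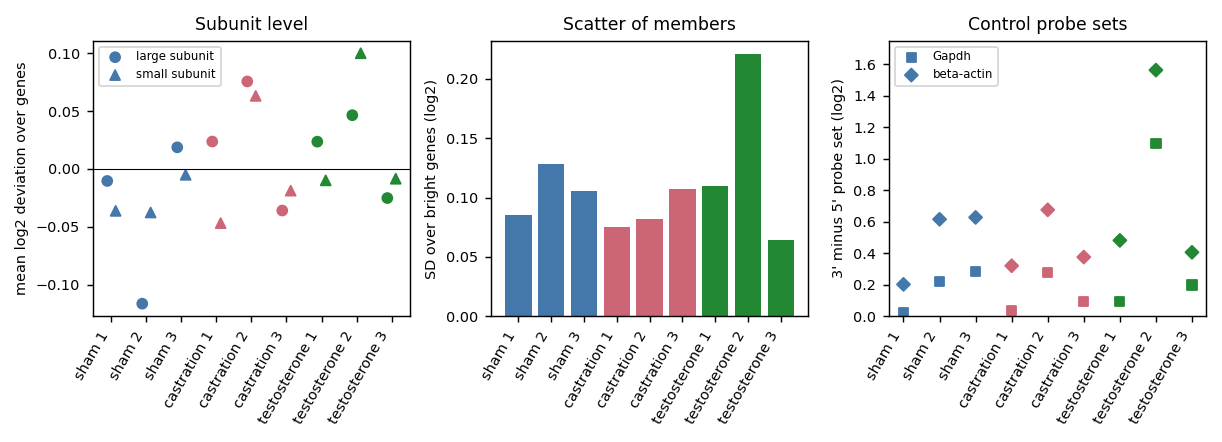
Values per array (sham blue, castration red, testosterone green): left, mean log2 deviation of large (circles) and small (triangles) subunit genes; middle, SD of the deviations over the 39 bright genes; right, 3′ minus 5′ log2 difference of the Gapdh (squares) and β-actin (diamonds) control probe sets. Subunit means stay within about 0.12 of 0 on every array, and testosterone 2 has the highest bar and the highest control differences.

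Probe sets of the same gene were compared on testosterone 2. For the 17 genes with at least 2 bright probe sets (50 probe sets), the median gap between the highest and lowest deviation was 0.28. Rpl27 had the widest, from −0.30 to 0.48, and Rpl27, Rpl35, Rpl37a, Rpl7 and Rps18 had deviations of opposite sign, while the other genes had all theirs on one side of 0. For Rpl41, Rps7 and Rps20 the gap was 0.019, 0.023 and 0.033. For those 5 genes the direction on this array depends on the probe set read.

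**Figure D4:**
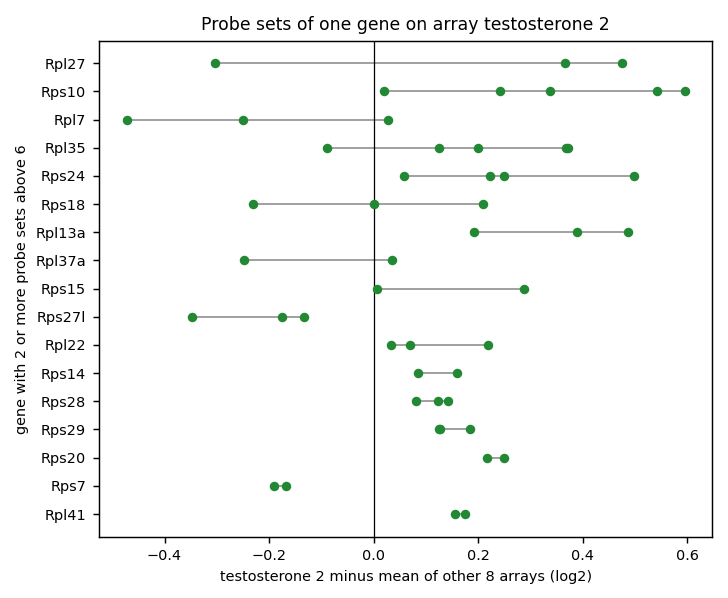
Deviation of each bright probe set on testosterone 2 from its mean on the other 8 arrays (log2, points) for the 17 genes with 2 or more such probe sets, joined by a line per gene and ordered by gap. The line crosses 0 for Rpl27, Rpl35, Rpl37a, Rpl7 and Rps18.

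Rpl3l and Rpl3 were set side by side because they are alternatives for the same position in the large subunit and Rpl3l is restricted to striated muscle. Rpl3 was measured only on a probe set shared with another locus. It read 9.19, 9.46 and 9.23 in sham, 9.26, 9.18 and 9.07 after castration and 9.25, 10.10 and 9.10 with testosterone, so testosterone 2 was the highest and sham 2 the next. With testosterone Rpl3l read 11.75, 11.28 and 11.50, and testosterone 2 was its lowest array. Rpl3 differed by −0.12, 0.31 and 0.19 in the 3 comparisons, each ± 0.23, and Rpl3l by 0.15, −0.17 and −0.02, each ± 0.12. Without sham 2 and testosterone 2 the Rpl3l values were 0.16, −0.05 and 0.11. For Rpl3 the testosterone pools other than testosterone 2, at 9.25 and 9.10, lay within the castration range. None passed. Testosterone 2 and sham 2 were also the arrays with the highest adipocyte and the highest macrophage and lymphocyte marker values. They had the lowest fibroblast and matrix and the lowest tendon marker values, and testosterone 2 had the largest 3′ to 5′ gap. The part of any of these in the Rpl3 and Rpl3l values was not tested.

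**Figure D5:**
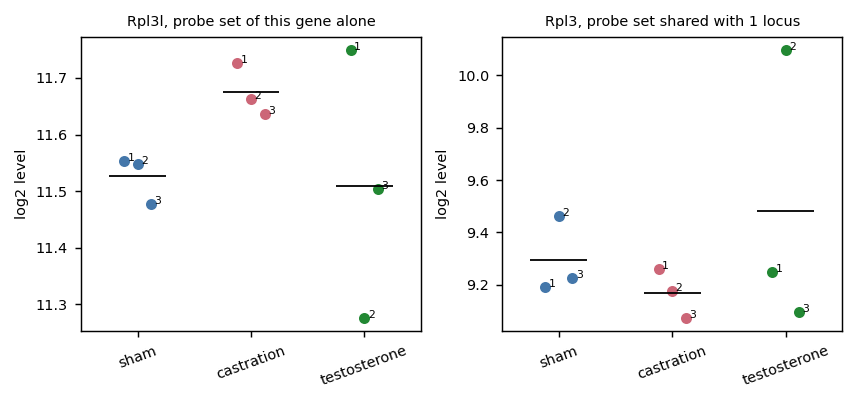
Log2 levels of Rpl3l (left) and of Rpl3 on its shared probe set (right) in the pools of each group, numbered by replicate, with the group mean as a line; the vertical axes differ and do not start at 0. Testosterone 2 is the lowest array for Rpl3l, at 11.28, and the highest for Rpl3, at 10.10.

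The wider machinery was described by lists without a test of the list. Of the ribosomal proteins outside the symbol rule only Fau, the precursor of a small subunit protein, was measured, and it differed by −0.07 after castration, 0.13 with testosterone against castration and 0.05 against sham. Fau turned to 0.02 after castration without sham 2, and to −0.03 and −0.10 with testosterone without testosterone 2. Mitochondrial ribosomal proteins, a separate family that serves the mitochondrial genome, had 65 of 76 genes higher after castration (median 0.12), 33 of 76 higher with testosterone against castration (median −0.025) and 55 of 76 higher against sham (median 0.09). Without sham 2 the counts against sham were 41 after castration (median 0.0069) and 34 with testosterone (median −0.034). On sham 2 the mitochondrial genes averaged −0.35 from their means, and the cytosolic ones −0.08. The smallest p-values belonged to Mrps30 (0.55 ± 0.24), Mrps35 (0.24 ± 0.11) and Mrps33 (0.33 ± 0.16) after castration, to Mrps26 (0.32 ± 0.13), Mrps35 (−0.27 ± 0.11) and Mrpl16 (−0.17 ± 0.11) with testosterone against castration, and to Mrps9, Mrps26 and Mrps15 against sham. The SD of Mrps30 was 0.56 in sham and 0.13 after castration.

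Ribosome biogenesis factors, which process ribosomal RNA and assemble the subunits, had 38 of 45 genes higher after castration (median 0.20), 21 of 45 with testosterone against castration (median −0.0061) and 40 of 45 against sham (median 0.16). Without sham 2 the counts against sham were 33 after castration (median 0.06) and 30 with testosterone (median 0.05), and the list averaged −0.37 on sham 2. Without testosterone 2 the median for testosterone against castration was 0.0056. Gnl2, a nucleolar GTPase, read 0.32 ± 0.088 higher after castration and 0.36 ± 0.088 higher with testosterone against sham, with adjusted p of 0.837 and 0.78 (limma). Rrs1 differed by 0.92 ± 0.28 and Nop2 by 0.27 ± 0.12 after castration. The SD of Rrs1 was 0.56 in sham and 0.21 after castration. Rrp12 differed by 0.43 ± 0.15 and Grwd1 by 0.55 ± 0.19 with testosterone against sham, and Rrp12, Nhp2 and Heatr1 by 0.30, 0.29 and 0.27 against castration. RNA polymerase I and its factors, which transcribe ribosomal RNA, were higher for 9, 9 and 12 of 16 in the order castration against sham, testosterone against castration and testosterone against sham (medians 0.05, 0.03 and 0.08), and for 8 and 6 against sham without sham 2 (medians −0.01 and −0.04). Polr1a, the catalytic subunit, differed by 0.47 ± 0.14 after castration, with an SD of 0.29 in sham and 0.07 after castration.

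Translation initiation and elongation factors were higher for 34, 25 and 32 of 42 in that order (medians 0.08, 0.05 and 0.11), and for 24 and 26 against sham without sham 2 (medians 0.02 and 0.04). Eef2k, the kinase that inhibits elongation factor eEF2, differed by 0.59 ± 0.20 with testosterone against castration and Eef2 by 0.16 ± 0.077. Eif2b5, of the guanine nucleotide exchange factor for initiation, differed by 0.27 ± 0.12 after castration and 0.37 ± 0.12 with testosterone against sham. Genes of mTOR, Myc and ribosome control were higher for 17, 10 and 17 of 22 (medians 0.14, −0.05 and 0.10), and for 12 and 10 against sham without sham 2 (medians 0.03 and −0.04). Without testosterone 2, 13 of 22 were higher with testosterone against castration, with a median of 0.05. Larp1, which binds TOP mRNAs, differed by 0.21 ± 0.10 after castration, Mdm2 by 0.26 ± 0.15, and Mtor by 0.17 ± 0.11 with testosterone against castration. In these 6 lists 0 genes passed the adjusted test of limma in any comparison. At an unadjusted p under 0.05, beside 4.72%, 3.48% and 4.35% of all genes in that order, the biogenesis list had 3, 0 and 4 of 45, RNA polymerase I 1, 0 and 1 of 16, the translation factors 0, 1 and 3 of 42, the mTOR and Myc list 0, 0 and 1 of 22, the mitochondrial ribosomal proteins 1, 2 and 0 of 76, and Fau was in none.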

How the data were processed

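Gastrocnemius RNA of 9 pools was measured on Affymetrix arrays. The authors deposited log2 values for each probe set. Per the submitters' processing notes they came from RMA, version not given in the sources used here. This method normalises all arrays together, so shifts common to an array are removed. Values were used as deposited. Of 45101 probe sets, 34945 are listed to 1 gene in the platform annotation. A gene was represented by its brightest such probe set, which left 18193 genes.

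Differences were fitted with limma 3.58.1 in R 4.3.3 (lmFit, eBayes) on all 9 arrays with group as the only term, two-sided, with Benjamini-Hochberg adjustment over all genes and a threshold of 0.05. The script was tested on simulated data. Arrays have no read depth, and 3 per group limit the precision. The labels call the pools independent biological replicates. The members and lists were chosen with earlier results of these data known. Genes to name were members with the 5 smallest p in each direction of a comparison, and with the 5 highest and 5 lowest levels and within-group SDs. Paralogs, members with other roles and the 3 smallest p of each related list were added. Those not given singly did not pass the adjusted test in any comparison. Alternatives were a replicate block, only the 2 groups compared, every or averaged probe sets, no cross-hybridising or dim probe sets, renewed quantile normalisation, median centring, intensity trend, robust variances, no moderation, array weights, arrays left out, and shared probe sets.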

Additional observations from a re-analysis of the deposited data

Results flagged for a closer look

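Control probe sets, which no comparison used, gave a wider gap between 3′ and 5′ ends than any sham array in 3 cases. On testosterone 2 the 3′ minus 5′ difference was 1.098 for Gapdh and 1.563 for β-actin. On castration 2 it was 0.676 for β-actin, just above the highest sham value of 0.628, and its Gapdh value of 0.277 lay below that of sham 3 at 0.284.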

How the results depend on the processing

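In all 23 alternatives, 0 ribosomal protein genes passed in any comparison. The smallest adjusted p of a member was 0.137, for the dim Rps16 after castration with array weights, which give sham 1 a weight of 4.61 and sham 2 0.164. Of 2163 values of named genes under alternatives, 142 had the other sign, none of them past the threshold. Many of the 2163 could not change sign, so the share is no measure of stability. The replicate block, only the 2 groups, the intensity trend, robust variances and no moderation leave the difference itself unchanged. So does leaving out an array of a group not compared. The large subunit median after castration was 0.086 with median centring and 0.029 without sham 2 and testosterone 2, and 0.029 to 0.075 leaving out 1 array, where the small subunit median was 0.0081 to 0.048. For testosterone against castration it was −0.054 without cross-hybridising probe sets, −0.029 with array weights and −0.040 without both arrays, and −0.040 to 0.026 leaving out 1 array, where the small subunit median was −0.011 to 0.048. For testosterone against sham the large subunit median was 0.062 with every probe set, 0.063 with median centring, −0.0096 without both arrays, 0.061 with shared probe sets and −0.0045 to 0.060 leaving out 1 array, and the small subunit median 0.057 with median centring. Among all genes, castration against sham called 2 with averaged probe sets, 2 with renewed quantile normalisation, 2 with an intensity trend, 174 with array weights, 18 without both arrays and 0 to 7 leaving out 1. Testosterone against castration called 12 with only the 2 groups, 2 with averaged probe sets, 9 without dim genes, 16 with renewed quantiles, 12 with a trend, 59 with weights, 27 without both arrays and 0 to 28 leaving out 1. Testosterone against sham called 0 to 1 leaving out 1. After each group's mean was removed, same-numbered arrays of different groups correlated between −0.49 and 0.27, and differently numbered arrays between −0.34 and 0.54. With 3 pools per group these values cannot show whether the numbers pair the pools. With the replicate block 0 members passed. Each replicate number occurs once in every group, so this term cannot move the medians, 0.059 and 0.023 after castration. The cause of these shifts was not tested.

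Limits are the 3 pools per group, the joint normalisation, which hides a change in total ribosome content, dim probe sets for 11 members, the 31 genes without a probe set of their own, and 2 arrays that stood apart.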
